A study of Mus musculus with 2 samples.

Results

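Calcineurin, its NFAT substrates and its RCAN regulators were followed as a list of 9 genes (Ppp3ca, Ppp3cb, Ppp3r1, Nfatc1, Nfatc2, Nfatc3, Nfatc4, Rcan1 and Rcan2), out of 35163 genes in the count table. The genes were taken by name from the table, and their levels were read across single myofibers grouped by the leading myosin heavy chain of each cell. The cells came from a short muscle of the hind foot built mostly of fast fibers, the flexor digitorum brevis (FDB), of 1 untreated adult C57BL/6J mouse over 3 months of age. Each sorted myofiber or fragment was placed in a plate well, and its RNA was counted by mcSCRB-seq. In that method each captured molecule carries a unique molecular identifier (UMI). Each cell also bears 1 of 8 library index codes, numbered 705 to 712. A plate here means the cells that share a code, and no plate number was read from the labels. Of 763 cells, 171 passed the filters of over 5000 genes detected and under 20% of counts from mitochondrial genes. The largest of Myh1, Myh2, Myh4, Myh7 and Myh8 placed 117 cells in fast 2X (Myh1), 51 in fast 2A (Myh2), 2 in slow (Myh7) and 1 in fast 2B (Myh4).

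All cells belong to 1 animal, so cells are not replicates and no p-value was computed. Levels are CPM, which is the UMI count of a gene scaled to a total of 1000000, of counts summed over the cells of a class, with exact Poisson 95% limits, and ratios have exact conditional binomial limits; all limits cover counting error only. The 171 cells held 51923865 counts, with a median of 239581 per cell and a range from 28827 to 1542996. Plates were split between 2 sequencing lanes, with 88 cells on lane 1 and 83 on lane 2, and no full cell barcode was shared between the lanes. Of 9 slow programme genes, 8 were at least 1.5-fold higher in fast 2A than in fast 2X. Tnnt1 led them with a log2 ratio of 3.51. Of 9 fast programme genes 4 were at least 1.5-fold lower, led by Actn3 at -1.74, with a median of -0.51. Of all genes compared, 4.17% were higher and 14.3% lower by that rule. Myofiber markers summed to 126669 CPM in fast 2X and 138167 CPM in fast 2A. Classes were set by the largest Myh gene alone, so a fast 2A cell may also hold Myh7. The authors describe raised Myh7 in part of their cluster of slow and fast 2A fibers. By that measure they count more slow fibers than the 2 cells classed as slow here. Which of the cells here they counted as slow is not given in the sources used here. How much Myh7 the fast 2A cells held was not tested, so the slow programme genes do not settle how pure that class is.

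Calcineurin is a phosphatase that is switched on by calcium. It is built from a catalytic A subunit, encoded by Ppp3ca, Ppp3cb or Ppp3cc, and a calcium-binding B subunit, encoded in most tissues by Ppp3r1. Active calcineurin removes phosphates from the transcription factors NFATc1 to NFATc4, which then enter the nucleus, and kinases send them back out. RCAN proteins bind the A subunit and can inhibit it. In skeletal muscle the pathway is known for its part in the slow and oxidative fiber programme, and a short Rcan1 transcript, begun inside the gene, is a known NFAT target.

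The windows around the annotated starts of Rcan1 and Rcan2 are shown because these genes carried the difference between classes described below. The sequences are from RefSeq (build GRCm38.p6), each with 250 bases before and 50 after a start, 5′ to 3′ on the strand of the gene. Capitals mark GGAAA, the core of the NFAT binding motif, or its reverse complement TTTCC, the only motif searched. Rcan1 lies on the minus strand of chromosome 16 (92391953 to 92470867). Its upstream start is the first line (chr16:92466120-92466419) and its internal start the second (chr16:92400029-92400328). The internal start lies 70789 bases inside the gene, in an intron of all 4 annotated transcripts that begin elsewhere and span it. Rcan2 lies on the plus strand of chromosome 17 (43801351 to 44039516), and its lines are the outer start (chr17:43801102-43801401) and the start farthest inside (chr17:43952749-43953048), again in an intron of all 3 other transcripts that span it.
Rcan1 upstream: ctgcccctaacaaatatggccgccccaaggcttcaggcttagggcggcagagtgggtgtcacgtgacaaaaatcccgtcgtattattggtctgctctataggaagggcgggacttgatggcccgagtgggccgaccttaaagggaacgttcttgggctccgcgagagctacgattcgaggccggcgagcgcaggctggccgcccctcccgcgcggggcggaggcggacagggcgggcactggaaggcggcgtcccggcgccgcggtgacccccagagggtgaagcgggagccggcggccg
Rcan1 internal: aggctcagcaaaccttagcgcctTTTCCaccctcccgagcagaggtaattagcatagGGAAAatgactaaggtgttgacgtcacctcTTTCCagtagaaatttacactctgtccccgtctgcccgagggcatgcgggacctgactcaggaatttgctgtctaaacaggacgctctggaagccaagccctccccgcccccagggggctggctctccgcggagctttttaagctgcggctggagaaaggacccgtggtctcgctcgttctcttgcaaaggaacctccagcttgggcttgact
Rcan2 outer: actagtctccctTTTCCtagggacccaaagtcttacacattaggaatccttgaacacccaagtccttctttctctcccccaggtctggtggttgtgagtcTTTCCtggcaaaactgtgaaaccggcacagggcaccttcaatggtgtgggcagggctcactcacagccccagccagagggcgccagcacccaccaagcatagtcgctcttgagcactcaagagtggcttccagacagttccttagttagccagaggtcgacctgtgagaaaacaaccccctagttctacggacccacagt
Rcan2 inner: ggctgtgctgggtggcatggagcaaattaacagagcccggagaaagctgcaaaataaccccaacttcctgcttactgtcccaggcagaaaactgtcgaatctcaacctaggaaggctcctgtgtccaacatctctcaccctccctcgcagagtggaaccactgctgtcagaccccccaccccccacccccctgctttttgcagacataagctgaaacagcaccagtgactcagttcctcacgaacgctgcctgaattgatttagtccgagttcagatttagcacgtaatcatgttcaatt
The internal Rcan1 window held 3 matches and the outer Rcan2 window 2, while the upstream Rcan1 window, the inner Rcan2 window and a further Rcan2 window between them (chr17:43801601-43801900) held 0. Among 32817 RefSeq windows of 300 bases, 61.3% held at least 1 match, 26.7% at least 2 and 9.41% at least 3. Of the other members with a window in the table, Ppp3cb had 4 matches, Ppp3r1 had 0, and Nfatc2, Nfatc3 and Nfatc4 had between 0 and 3 per window, so 7 of the 9 members were covered. A match is a description of letters only. The UMI counts are per gene and do not say which start a transcript came from.

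Catalytic subunit genes were the most counted members. Over the 171 cells, Ppp3ca reached 369 CPM (95% limits 364 to 374) and was counted in every cell, with a lowest cell of 109 CPM, a median of 354 and a highest of 668. Ppp3cb followed at 200.1 CPM (limits 196 to 204), with cells from 0 to 433 CPM around a median of 182. Ppp3r1, the B subunit gene, stood at 60.5 CPM (limits 58.4 to 62.6). Thus transcripts of the A subunit outnumbered those of the B subunit in this count. Ppp3r1 shares bases with Wdr92 on the same strand (854 counts in the 171 cells) and Ppp3cb with the antisense gene 1810062O18Rik (336 counts), and whether strand was used in counting is not given in the sources used here.

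Of the NFAT genes, Nfatc2 was at 75.5 CPM (limits 73.1 to 77.9), Nfatc1 at 56.9 (limits 54.9 to 59.0) and Nfatc3 at 28.7 (limits 27.2 to 30.2). Nfatc4 was close to absent, with 23 counts in 19 cells, or 0.443 CPM (limits 0.281 to 0.665). Rcan1 was at 147 CPM (limits 144 to 150.3) and Rcan2 at 73.5 CPM (limits 71.2 to 75.8). In this order of summed CPM, the counting limits of Nfatc2 and Rcan2 overlapped, as did those of Ppp3r1 and Nfatc1. Per kilobase of annotated exons the order changed: Rcan1 came first at 47.6 CPM per kb, then Ppp3ca at 37.0, Ppp3cb at 22.7, Ppp3r1 at 18.7 and Rcan2 at 16.8, with Nfatc1 and Nfatc2 at 7.62 and 7.14 and Nfatc3 at 2.45. Each captured molecule carries its own UMI, so counts need not rise with exon length. The order per kilobase is a description only and does not rank Rcan1 above Ppp3ca in molecules. In summed CPM, the NFAT genes lay below Ppp3ca, Ppp3cb and Rcan1, as they did per kilobase.

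Summed levels differed between the lanes. Ppp3ca was at 346 CPM on lane 1 and 390 on lane 2, and Ppp3r1 at 52.2 and 68.1. Rcan2 went the other way, with 85.4 CPM on lane 1 and 62.3 on lane 2, and Rcan1 was at 155 and 140. In single cells the RCAN lanes were closer, with a mean of 166 CPM on both lanes for Rcan1 and medians of 62.1 and 65.1 CPM for Rcan2. How cells were assigned to lanes is not given in the sources used here, and lane and plate ratios of the members stand beside their class comparison.

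Rcan1 and Rcan2 were higher in fast 2A than in fast 2X myofibers, while no calcineurin subunit or NFAT gene passed 1.5-fold in either direction. The comparison took genes with at least 100 counts in the 171 cells, which left 8 of the 9 members and set Nfatc4 aside (5 counts in fast 2A, 15 in fast 2X). Of the 8, 2 were at least 1.5-fold higher in fast 2A and 0 lower. Of all 15813 genes compared, 4.17% were higher and 14.3% lower by this rule, 18.4% in all; with edgeR TMM factors, which moved the median ratio from -0.12 to -0.01, the shares were 6.46% and 10.4%, and the same 2 members passed. The members' median log2 ratio was -0.12, against -0.12 for all genes compared, whose quartiles were -0.39 and 0.12. Whether Myh7 in fast 2A cells went with their Rcan1 and Rcan2 levels was not tested.

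**Figure D1:**
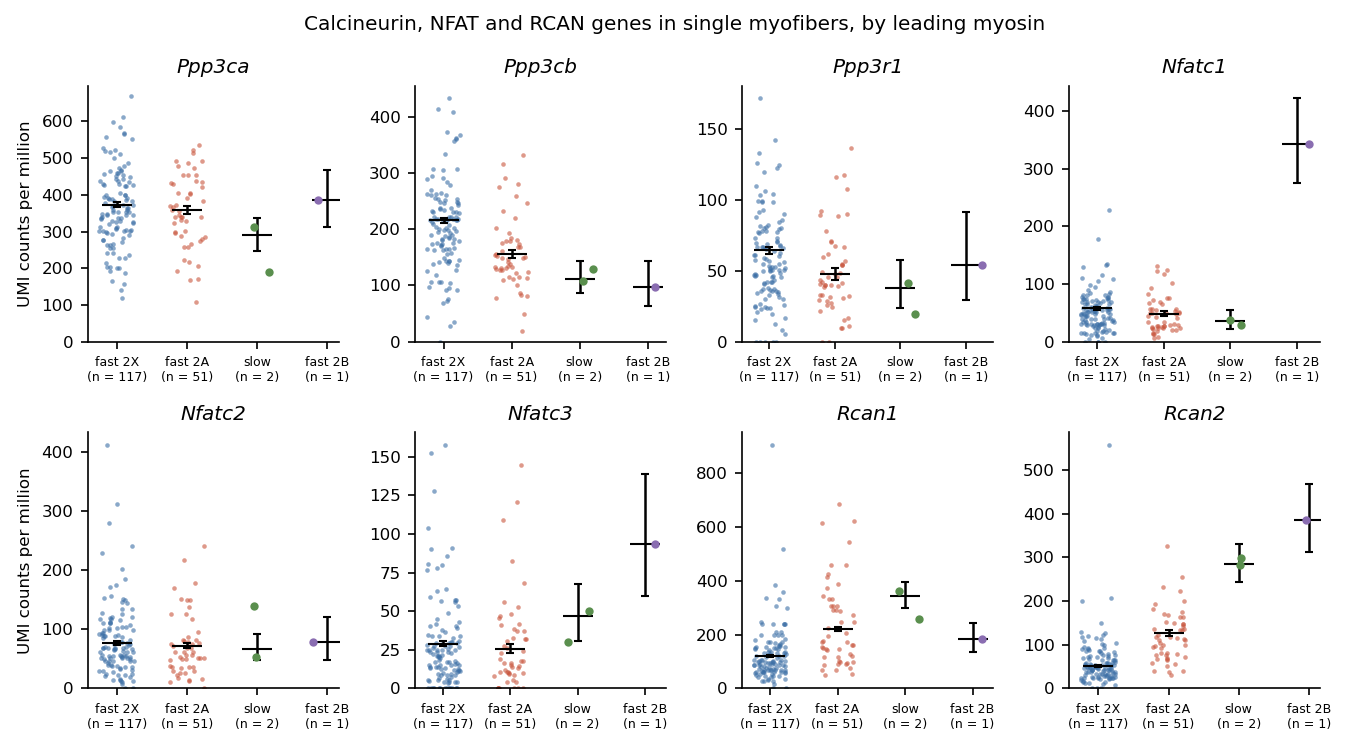
CPM of 8 members in each of the 171 myofibers (points) by leading myosin class, with the summed CPM of the class and its 95% Poisson limits in black; Nfatc4 is not drawn. Rcan2 stood at 52.1 CPM in fast 2X and 127 CPM in fast 2A, and the single fast 2B cell had 342 CPM of Nfatc1.

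Rcan2 showed the larger difference. Single fast 2X cells ranged from 0 to 558 CPM with a median of 48.3, and fast 2A cells from 30.1 to 325 with a median of 113. The classes overlapped, but 47 of the 51 fast 2A cells lay above the fast 2X median. Summed Rcan2 was 127 CPM (limits 120 to 133) in fast 2A and 52.1 CPM (limits 49.9 to 54.4) in fast 2X, a 2.43-fold difference with a log2 ratio of 1.28 (limits 1.18 to 1.38). Only 0.613% of the genes compared had a ratio at least as high. The log2 ratio was 1.49 on lane 1 and 0.95 on lane 2, and it was above 0 on all 7 plates that held at least 3 cells of each class, from 0.38 on plate 711, the only one short of 1.5-fold, to 1.65 on plate 708.

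The highest fast 2X cell for Rcan2 was unusual in another way. It lay on plate 710, had 39394 counts in all, of which 22 were Rcan2, and markers of endothelial, smooth muscle, fibroblast, Schwann, immune and satellite cells summed to 16855 CPM in it, the most of any kept cell. Across the class sums those marker lists were close, for example 170 CPM in fast 2X and 153 in fast 2A for the 8 endothelial markers and 70.7 and 65.2 for the 8 fibroblast markers. In cells at or under the median of the combined markers (61 fast 2X and 25 fast 2A), the Rcan2 log2 ratio was 1.17 and that of Rcan1 was 1.02.

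Rcan1 followed the same direction over a wider spread between cells. Fast 2X cells ranged from 0 to 907 CPM with a median of 102, and fast 2A cells from 50.4 to 685 with a median of 177. Here 40 of the 51 fast 2A cells exceeded the fast 2X median. Summed Rcan1 was 221 CPM (limits 213 to 230.0) in fast 2A and 121 CPM (limits 118 to 125) in fast 2X, a log2 ratio of 0.87 (limits 0.80 to 0.94), and 1.68% of genes had a ratio at least as high. The lanes gave 0.80 and 0.94, and the 7 plates gave values from 0.37 on plate 708 to 1.44 on plate 711, all above 0 but short of 1.5-fold on plate 708 and on plate 712 (0.57). The plates with the lowest and highest Rcan1 ratios were thus those with the highest and lowest Rcan2 ratios.

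**Figure D2:**
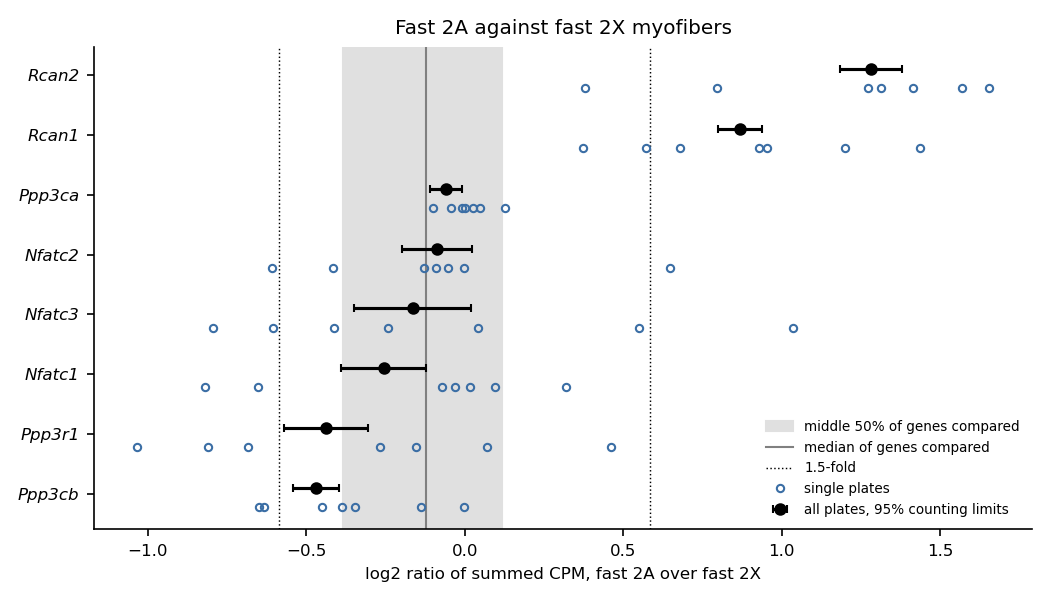
Log2 ratio of summed CPM, fast 2A over fast 2X, for the 8 members compared, with black points for all plates and their 95% counting limits, open circles for single plates (7 had 3 or more cells per class), and a grey band for the middle 50% of the 15813 genes compared. Rcan1 and Rcan2 lie to the right of the band on all 7 plates, and the Ppp3ca circles lie between -0.10 and 0.13.

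Subunit genes of calcineurin did not share this direction. Ppp3ca was nearly level, at 358 CPM (limits 348 to 369) in fast 2A and 373 CPM (limits 367 to 380) in fast 2X, with cells from 109 to 535 CPM around a median of 356 and from 120 to 668 around 354. Its log2 ratio was -0.06 (limits -0.11 to -0.01), which took a positive sign with edgeR TMM or DESeq2 factors, as a ratio this near the median of all genes does, and was -0.04 on lane 1 and -0.03 on lane 2. Ppp3cb, the second A subunit gene, was 156 CPM (limits 149 to 163) in fast 2A and 216 CPM (limits 211 to 220) in fast 2X, 1.38-fold higher in fast 2X and short of the 1.5-fold rule. Its log2 ratio of -0.47 was -0.42 on lane 1 and -0.48 on lane 2. Its plate values ran from -0.65 to -0.0015 and were below 0 on all 7 plates, although 19.7% of genes compared had a lower ratio. Only 9 of 51 fast 2A cells were above the fast 2X median of 204 CPM for Ppp3cb.

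Ppp3r1 was 47.8 CPM in fast 2A and 64.7 CPM in fast 2X, a log2 ratio of -0.44 (limits -0.57 to -0.30), with lane values of -0.38 and -0.41 and plate values from -1.04 to 0.46 that lay above 0 on 2 of 7 plates. In single cells the medians were 42.1 and 53.7 CPM, and the classes overlapped over nearly the whole range. The overlapping gene Wdr92 was not separated from it here.

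No NFAT gene set the classes apart. Nfatc1, the family member most often tied to slow fibers, was 48.5 CPM in fast 2A and 57.9 CPM in fast 2X, a log2 ratio of -0.26 (limits -0.39 to -0.12). Nfatc2 gave -0.09 (limits -0.20 to 0.02), also positive with those factors, and Nfatc3 gave -0.16 (limits -0.35 to 0.02), and for each of Nfatc1, Nfatc2 and Nfatc3, 23 of 51 fast 2A cells were above the fast 2X median. On lanes 1 and 2 the ratios were -0.24 and -0.33 for Nfatc1, 0.04 and -0.30 for Nfatc2, and -0.33 and 0.02 for Nfatc3. Plate values of Nfatc3 ran from -0.79 to 1.03, and those of Nfatc1 and Nfatc2 lay on both sides of 0 as well. The make-up of the NFAT counts was also close between the classes. Nfatc2 gave 46.8% of the NFAT counts in fast 2X and 49.1% in fast 2A, Nfatc1 gave 35.4% and 33.0%, and Nfatc3 gave 17.6% in both.

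Ratios within a cell do not depend on its total count. Rcan1 and Rcan2 together had 28.3 counts for every 100 counts of the A subunit genes (Ppp3ca, Ppp3cb and Ppp3cc) in fast 2X and 65.6 in fast 2A, a 2.32-fold difference. Single fast 2X cells ranged from 6.00 to 287.5 around a median of 27.9, and fast 2A cells from 16.2 to 161 around a median of 59.8. Of the 51 fast 2A cells, 50 were above the fast 2X median. Within the 7 plates the fast 2A value was 1.72 to 2.55 times the fast 2X value. In the cells low in other cell type markers the values were 27.6 and 60.8.

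**Figure D3:**
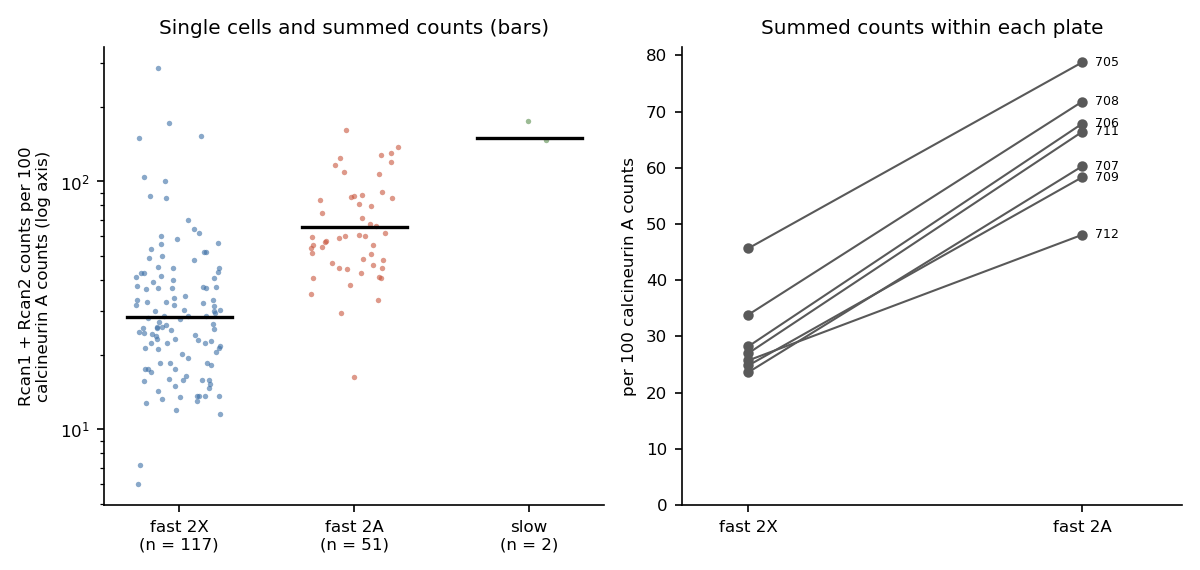
Counts of Rcan1 plus Rcan2 per 100 counts of the calcineurin A genes, in single cells on a log axis with the class sums as bars (left) and as summed counts within each of 7 plates, labelled by library index code (right). The sums were 28.3 in fast 2X, 65.6 in fast 2A and 150.4 in slow, and every plate has the higher value in fast 2A.

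Rcan1 made up 69.9% of RCAN counts in fast 2X and 63.6% in fast 2A, so that both genes contributed to the sum. Within the A subunit counts, Ppp3cb gave 35.2% in fast 2X and 29.3% in fast 2A, Ppp3ca 61.0% and 67.5%, and Ppp3cc, the third A gene, 3.85% and 3.16%. Ppp3r1 counts per 100 A subunit counts were 10.6 and 9.0. Shares within the A subunit counts and within the RCAN counts thus each moved by a few percentage points. On the scale of levels, Ppp3cb was 1.38-fold higher in fast 2X, while Rcan1 and Rcan2 passed the 1.5-fold rule the other way.

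Many FDB myofibers carried both Myh1 and Myh2, so levels were also read along the Myh2 share of the Myh1 and Myh2 counts in the 168 fast 2X and fast 2A cells. A share of 50% is also the border between these classes, so a step there repeats the class comparison. From under 20% (48 cells) through 20 to 50% (69 cells) and 50 to 80% (35 cells) to 80% and over (16 cells), Rcan2 was 42.7, 64.1, 106 and 169 CPM, a step up in each group. Rcan1 was 125, 116, 205 and 254 CPM, level through the first pair of groups and higher after. Ppp3cb was 228, 200, 161 and 145 CPM and Ppp3r1 69.7, 58.4, 52.4 and 38.5 CPM, a step down in each group. Ppp3ca stayed between 353 and 389 CPM. Median total counts per cell were 330043, 176742, 228026 and 153911 in the 4 groups, and the part of depth in these levels was not tested.

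**Figure D4:**
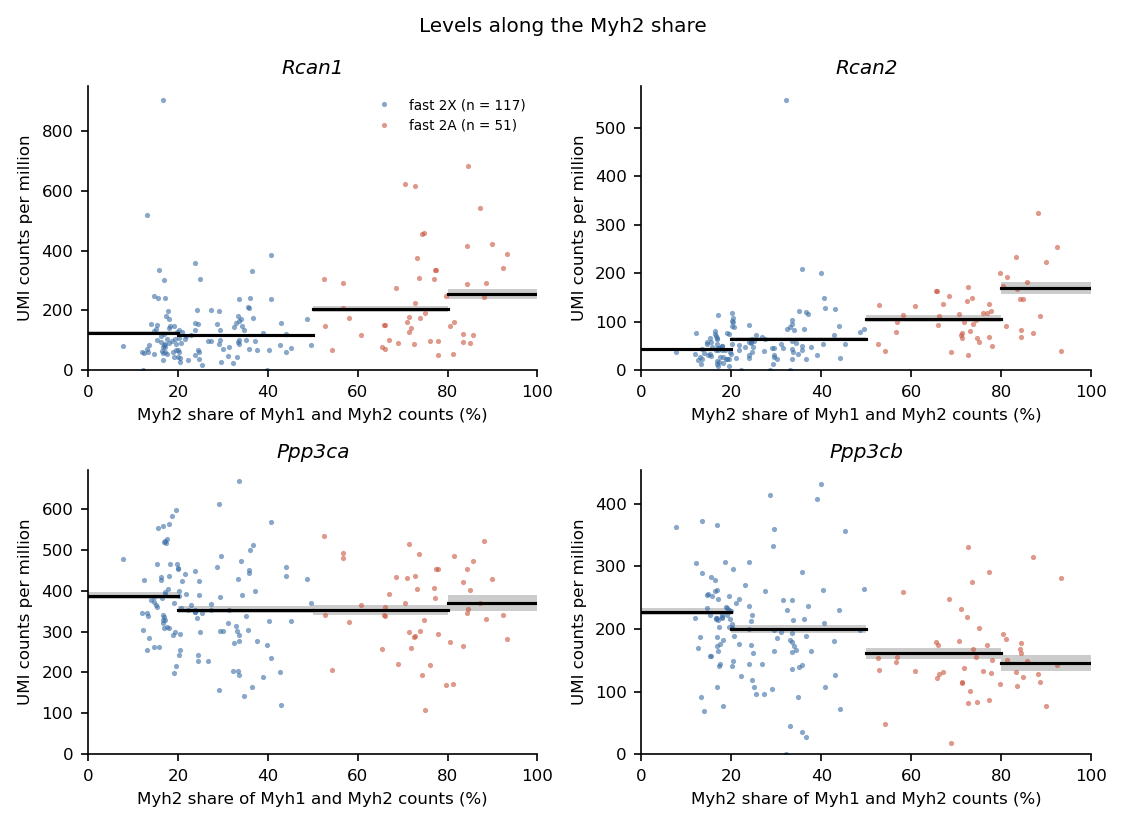
CPM of Rcan1, Rcan2, Ppp3ca and Ppp3cb in the 168 fast myofibers against the percent of Myh1 and Myh2 counts that were Myh2, with black steps for the summed CPM of the 4 share groups and grey for 95% Poisson limits. Rcan2 climbs from 42.7 to 169 CPM over the 4 steps, and Ppp3cb goes from 228 to 145 CPM.

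As a description over cells that share plates and depth, the Spearman correlation of Rcan2 CPM with the Myh2 share was 0.58 in all 171 cells, 0.32 within the 117 fast 2X cells and 0.29 within the 51 fast 2A cells. For Rcan1 the values were 0.37, 0.10 and 0.26. The NFAT genes had values between -0.11 and -0.03 in all cells. Rcan1 and Rcan2 correlated with each other at 0.19 in all cells, but at -0.07 within fast 2X and -0.10 within fast 2A. They were thus both higher in fast 2A and showed no common order among cells of a class.

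The spread between cells differed between members. To set depth aside, each cell was thinned to 28827 counts, the total of the smallest kept cell, and the variance of the thinned counts was divided by their mean over the 117 fast 2X cells. Rcan1 had a value of 3.73, against a median of 1.73 for 543 genes of like mean, of which it exceeded 97.2%. Rcan2 had 2.37 (median of 1022 like genes 1.59). Its thinned mean was 1.72, and the class included the marker-rich plate 710 cell with 22 Rcan2 counts among 39394. The part of single high cells in these values was not tested. Ppp3ca was at the even end, with 1.61 against 2.54 for 166 like genes, and exceeded 3.01% of them. Ppp3cb had 1.96 and the NFAT genes with a thinned count had 1.67 to 2.03. In the thinned cells Rcan2 was counted in 77.8% of fast 2X and 90.2% of fast 2A. Ppp3ca was counted in every cell of both classes. Nfatc4 was counted in 0 of 117 thinned fast 2X cells and 2 of 51 thinned fast 2A cells, and before thinning in 12 and 5, so the thinned share is set by depth.

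The genes most like each of 3 members were sought by Spearman correlation of CPM over the 171 cells, among 5896 genes with at least 1000 counts. For Rcan2 they were Tnni1 (0.59), Tnnt1 (0.53), Ldhb (0.52), Coq8a (0.51) and Lpl (0.50), among them the slow troponins I and T and a lactate dehydrogenase subunit of oxidative tissue. For Rcan1 they were Rrad (0.53), a small GTP-binding protein, Glul (0.49), Cx3cr1 (0.47), Ankrd2 (0.46) and Mid1ip1 (0.45). Rcan1 and Rcan2 shared none of these genes, but lists this short out of 5896 genes seldom share any, so this does not set them apart. For Ppp3ca the values were lower, with Asb5 at 0.41 first and Zbtb20, Mbnl2, Arid5b and Ano6 between 0.38 and 0.40. Values over the 171 cells include the difference between the classes. Within the 117 fast 2X cells Rrad stayed first for Rcan1 at 0.51. For Rcan2 the highest there were Cfdp1 (0.30), then Rpl31, Aldh2, Uty and Tnni1 (0.29 each), without Tnnt1.

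Other genes of the pathway were counted from lists named by function, which were chosen with earlier results of these data known. Each count is a description only, beside the 4.17% of all genes that were higher and the 14.3% that were lower. Of the relatives outside the members, Ppp3cc gave -0.49, Rcan3 0.30 and Nfat5 0.11, and 0 of these 3 passed 1.5-fold.

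**Figure D5:**
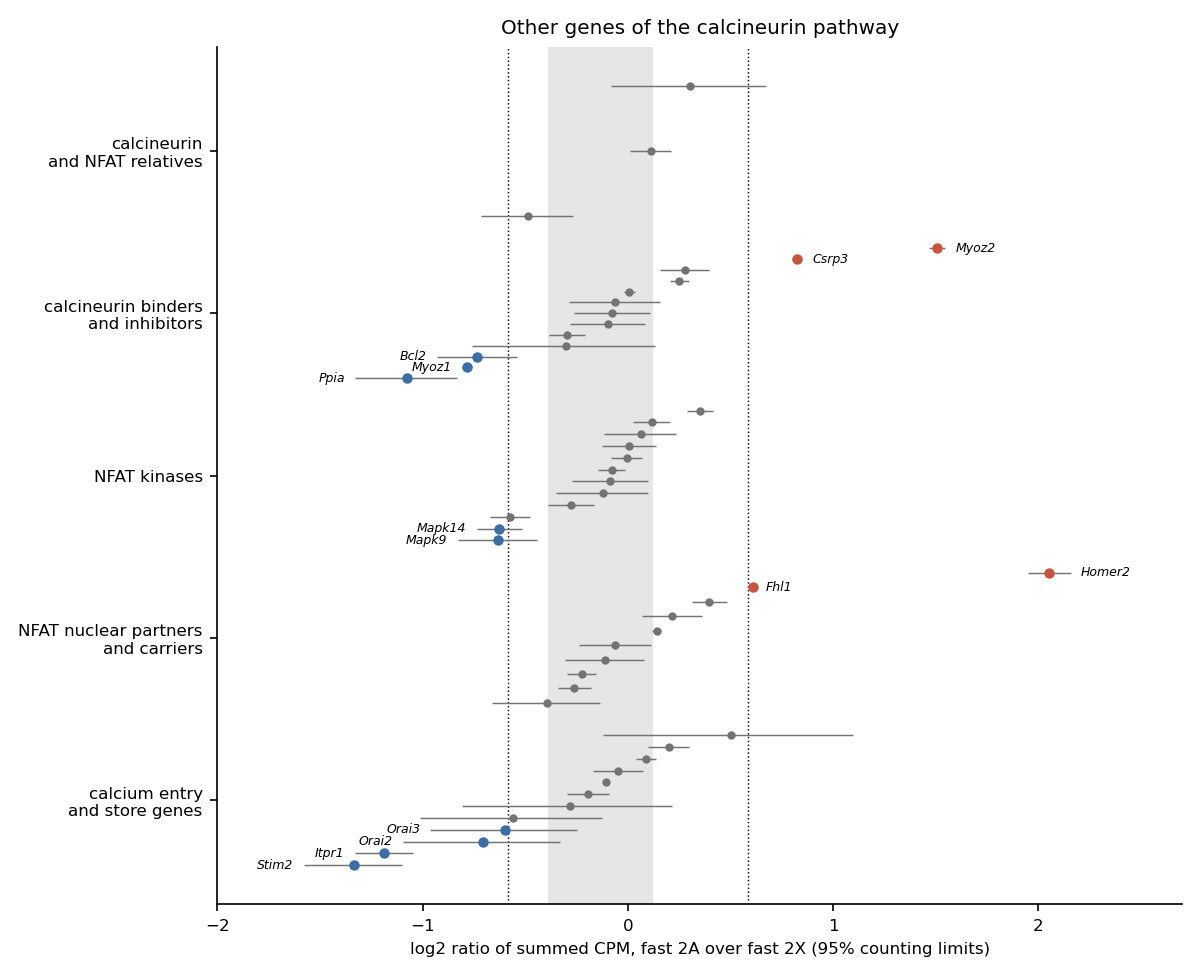
Log2 ratio of summed CPM, fast 2A over fast 2X, with 95% counting limits for the genes of 5 pathway lists that had at least 100 counts; red and blue points passed 1.5-fold (dotted lines) and are named, and the grey band is the middle 50% of all genes compared. Homer2 is farthest to the right at 2.05 and Stim2 farthest to the left at -1.33.

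Among 13 compared genes whose products bind calcineurin or take part in its inhibition or anchoring, 2 were higher and 3 lower in fast 2A. The calsarcins of the Z-disc, which tether calcineurin, split: Myoz2, the slow-fiber form, was 783 CPM in fast 2A and 275 CPM in fast 2X (log2 ratio 1.51, limits 1.47 to 1.55), while Myoz1, the fast-fiber form and the most counted gene of the list, was 1284 and 2210 CPM (log2 ratio -0.78, limits -0.81 to -0.76). Csrp3, which encodes the muscle LIM protein, was 2007 and 1133 CPM. Ppia, which encodes the cyclosporin-binding cyclophilin A, gave -1.07, and Bcl2 gave -0.73. Myoz2, Myoz1, Csrp3 and Ppia passed on each lane, with lane values of 1.27 and 1.75 for Myoz2, and Bcl2 was at -0.50 on lane 1 and -0.90 on lane 2.

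The list of NFAT partners and carriers, not all of them nuclear, held 10 compared genes, of which 2 were higher and 0 lower. Homer2, a scaffold protein known to compete with calcineurin for NFAT, had the highest ratio of the 5 lists drawn, 140 CPM in fast 2A and 33.7 CPM in fast 2X (log2 ratio 2.05, limits 1.95 to 2.16), with plate values from 1.84 to 2.57. Fhl1, a LIM protein and the most counted gene of the list, gave 0.61, with 0.60 and 0.63 on the lanes. Mef2a, Mef2c and Mef2d, transcription factors that act with NFAT in muscle, gave -0.26, 0.14 and 0.40.

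NFAT kinases numbered 12, and 2 passed the rule, both lower in fast 2A: Mapk9 at -0.63 and Mapk14 at -0.63, a share near that of all genes. Each fell short of 1.5-fold on a lane, Mapk9 on lane 1 (-0.44) and Mapk14 on lane 2 (-0.55). The most counted kinase, Csnk1a1, gave -0.08, and Gsk3b, a kinase known for export of NFAT, gave 0.35. With edgeR TMM or DESeq2 factors 0 of the 12 passed.

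Of 12 genes of calcium entry and release, 4 were lower and 0 higher. Stim2, a calcium sensor of the store, was 13.7 CPM in fast 2A and 34.5 CPM in fast 2X (log2 ratio -1.33, limits -1.58 to -1.10), and Itpr1, the inositol trisphosphate receptor, was 39.1 and 88.9 CPM. Both passed on each lane. Orai2 gave -0.70 on 441 counts, with -0.37 on lane 1 and -0.86 on lane 2. Orai3 gave -0.60 on 482 counts, with -1.76 on lane 1 and 0.47 on lane 2. Ryr1, the release channel of skeletal muscle and the most counted gene, was 4415 and 4747 CPM, a log2 ratio of -0.10. With edgeR TMM or DESeq2 factors Orai3 no longer passed and Trpc1, with 121 counts, passed as higher, and relative to the median of all genes Orai2 did not pass either.

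The 2 slow cells had more Rcan1 and Rcan2 than the summed fast 2A cells. Rcan2 was 282 CPM (limits 236 to 334) in the slow cell of plate 707 and 298 CPM (limits 201 to 426) in that of plate 709. Rcan1 was 361 CPM (limits 309 to 419) and 258 CPM (limits 169 to 379, from 26 counts). The latter limits span the summed fast 2A value of 221 CPM. RCAN counts per 100 A subunit counts in the slow cells were 147 and 175, above the highest fast 2A cell in the second case only. Ppp3ca was 311 and 189 CPM. Other cell type markers summed to 739 and 795 CPM in these cells, against a median of 401 in all kept cells.

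The single fast 2B cell had 385 CPM of Rcan2 (limits 313 to 469) and 342 CPM of Nfatc1 (limits 275 to 422), the second and the first highest of the 171 cells. The same cell held 4260 CPM of other cell type markers, with 1502 CPM of the fibroblast gene Dcn, and its myofiber markers summed to 41814 CPM. The part of these cells' RNA in its Rcan2 and Nfatc1 values was not tested.

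The 592 cells left out by the filters had a median of 16032 counts and 48.0% mitochondrial counts. Each of the 8 members with at least 100 counts was lower there on the CPM scale, for example Ppp3ca at 140 CPM (limits 134 to 146), Rcan1 at 60.3 (limits 56.5 to 64.3) and Rcan2 at 40.5 (limits 37.4 to 43.8), while Nfatc4 was 0.513 CPM (limits 0.221 to 1.01). The totals used for this CPM include the mitochondrial counts.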

How the data were processed

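Single myofibers of 1 mouse were sequenced as 2 lane samples of 1 group. The authors mapped reads with STAR 2.5.4b to GRCm38 (mm10) joined to the ERCC spike-in references, and zUMIs with featureCounts gave the UMIs of each gene; the submitters' processing notes also name Cell Ranger 3.1.0. Strand and intron settings are not given in the sources used here. The deposited table holds these estimated counts, 35163 genes by 763 cells, below 10 rows that describe the cells. All gene values were whole, so no rounding was done. Of the rows, 26 bear a date in place of a symbol and stayed in the totals. Gene sums were a median of 3.11% below the deposited UMI totals.

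Cells with over 5000 genes and under 20% mitochondrial counts were kept. Counts were summed by class and scaled to CPM. A gene counted as different at 1.5-fold or more with at least 100 counts in the kept cells, the Myh genes apart; this is a rule of size, not a test. Ratios, limits and thinning used Python 3.11.15, numpy 2.4.6 and scipy 1.17.1, and the ratio step was checked on simulated counts. Scaling alternatives used edgeR 4.0.16 TMM and DESeq2 1.42.0 size factors on the class sums. Other alternatives changed the filters, the averaging and the cells, lanes and plates used.

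All 9 members were named, and for each pathway list its most counted gene and those past 1.5-fold, up to 4; other genes of these lists, such as Bcl2, Gsk3b, Trpc1 and the Mef2 genes, were named after their values were seen. The members and lists were chosen with earlier results of these data known. Gene positions are from GENCODE vM21. Proteins were not used here, and some results of the lists are not reported here.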

Additional observations from a re-analysis of the deposited data

How the results depend on the processing

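The count of 2 members past 1.5-fold was 2 without either lane (range 2 to 2), without each plate, with edgeR TMM or DESeq2 factors, with totals free of mitochondrial genes, with means or medians over cells and under each change of filter tried. It was 4 with a lower fold minimum (Ppp3cb and Ppp3r1 being the additions, both lower), 1 with a minimum of 2-fold (Rcan2), 6 within plate 707 (5 fast 2A cells) and 4 within plate 709 (8 fast 2A cells). It was 3 within plates 705, 708 and 712 and 2 within plates 706 and 711, but Rcan1 fell short of 1.5-fold on plates 708 and 712 and Rcan2 on plate 711. Over the 22 alternatives that were not single plates, the log2 ratio of Rcan2 ran from 0.95 (lane 2 only) to 1.49 (lane 1 only) and that of Rcan1 from 0.77 to 1.02, all past 1.5-fold; Ppp3cb ran from -0.51 to -0.35. Ppp3ca, Nfatc1, Nfatc2 and Nfatc3 each took both signs. The share of all genes past 1.5-fold was 18.4%, but 48.6% with no count minimum and 10.0% with a minimum of 500. TMM and DESeq2 factors raised every ratio by 0.11 and 0.12 log2, and the higher genes then made up 38.4% and 39.2% of those past 1.5-fold, against 22.6%. Alternatives chosen after seeing the data were whole myofibers only, cells low in other markers, ratios relative to the median and RCAN counts per A subunit counts. No paired analysis was possible because the 2 lane samples form 1 group with 1 animal and the result comes from no test; the ratios within each lane and plate set the classes side by side instead. Levels rest on 1 mouse, and genes with few counts, such as Nfatc4, could not be compared at this depth.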
